A study of Danio rerio with 6 samples.

Results

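The genes nanog (ENSDARG00000075113) and pou5f3 (ENSDARG00000044774) were followed in pre-vitellogenic (PV) ovarian follicles of zebrafish. PV follicles are growing follicles whose oocyte has not yet taken up yolk protein. The genes were chosen by name, as transcription factor genes whose mRNA the oocyte supplies to the embryo. Earlier results of these data were known when they were chosen. They are 2 of the 32057 genes in the deposited tables. Both passed the filter on low counts, as did 17385 genes in all.

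Nanog is a homeodomain protein and Pou5f3 is the fish relative of the mammalian pluripotency factor OCT4, with a POU domain. Their mRNAs are made in the growing oocyte and stored. After fertilisation the proteins, together with SoxB1 factors such as Sox19b, open chromatin and start transcription of the embryo's own genome. In zebrafish embryos lacking these maternal products, many early zygotic genes are not switched on. Ybx1 is a cold-shock-domain protein that binds RNA and DNA and is found in stored maternal ribonucleoprotein particles.

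The follicles came from ybx1-/- fish (labelled MT) in 3 libraries and from ybx1+/+ wild-type fish in 3 libraries, all of the AB strain. The labels do not give the lesion of the mutant allele, the age of the fish or the number of fish behind a library, so that the p-values measure the spread between these libraries, which may be technical. The study's design text describes a histological block of mutant follicles between the PV stage and the next. The comparison bears on transcripts of PV follicles, which in the mutant may include blocked ones. Whether a difference precedes the block was therefore not tested. Total counts were 29511217, 20087447 and 37764782 in mutant libraries 1 to 3 and 26547338, 16600019 and 24282209 in wild-type libraries 1 to 3. ybx1 mRNA itself, which the symbol table lists as YBX1, was present in both genotypes. It had 253, 243 and 229 CPM (the count divided by the TMM-scaled library size) in the mutant and 275, 263 and 301 CPM in wild type. Its log2 fold change was -0.21 with a standard error (SE) of 0.06 (edgeR adjusted p = 0.0244), and this call was lost in 4 of the 6 fits that each left out a library. Since the lesion is not given, this level does not check the labels.

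The members differed in their response. pou5f3 mRNA fell in the mutant, to 49.6% of the wild-type level, whereas no difference was detected for nanog. sox19b, the SoxB1 gene with the highest count in these follicles, was higher in the mutant.

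For pou5f3, the counts lay between 691 and 1340 in mutant libraries and between 1257 and 2039 in wild-type libraries. After scaling, pou5f3 had 42.3, 34.7 and 35.3 CPM in mutant libraries 1 to 3 and 76.4, 75.2 and 75.1 CPM in wild-type libraries 1 to 3. The genotypes did not overlap, and the lowest wild-type library was 1.78 times the highest mutant library. Mutant library 1 stood above the other mutant libraries, while the wild-type libraries were close together.

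The mean of pou5f3 was 37.4 ± 4.19 CPM in the mutant and 75.6 ± 0.712 CPM in wild type (SD, n = 3 each). The log2 fold change was -1.01 (SE 0.08, 95% interval -1.19 to -0.83, edgeR adjusted p = 1.16e-05), which is 49.6% of the wild-type level with an interval of 43.7% to 56.2%. Against the stricter null of a change within 1.5-fold, edgeR's glmTreat gave an adjusted p of 0.00104. The coefficient of variation between wild-type libraries was 0.942%. Counting error alone gives 2.48% at these counts if every count is a separate read, and the wild-type SD is then smaller than its own counting error. The counts may be rounded estimates, for which that error is not known. In the mutant the coefficient of variation was 11.2%, against 3.16% from counting. These are bulk samples, in which fewer cells of a type and less RNA per cell cannot be told apart.

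For nanog, the counts lay between 8966 and 17181 in mutant libraries and between 7494 and 13458 in wild-type libraries. It had 510.0, 450.3 and 453 CPM in mutant libraries 1 to 3 and 504, 449 and 473 CPM in wild-type libraries 1 to 3. The ranges of the genotypes overlapped almost wholly, and library 1 was the highest in each.

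The mean of nanog was 471 ± 33.8 CPM in the mutant and 475 ± 27.9 CPM in wild type (SD, n = 3 each). The log2 fold change was -0.01 (SE 0.06, edgeR adjusted p = 0.895). Its 95% interval ran from -0.16 to 0.13, or from 89.8% to 109% of the wild-type level, so a fall of the size seen for pou5f3 lies outside it. If every count is a separate read, counting error alone would give coefficients of variation of 0.888% in the mutant and 0.993% in wild type. Those observed were 7.17% and 5.86%.

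**Figure D1:**
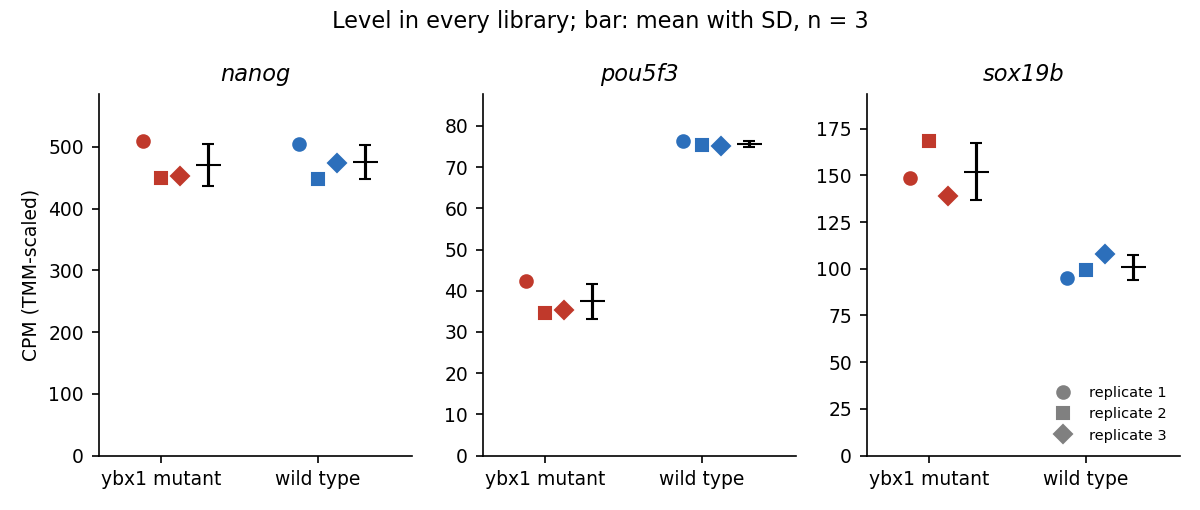
Level of nanog, pou5f3 and sox19b in each library, in CPM on TMM-scaled library sizes (y axes start at 0), with ybx1 mutant libraries in red and wild-type libraries in blue; the black bar is the mean with SD, n = 3, and the marker shape gives the replicate number. The mutant libraries lie below all wild-type libraries for pou5f3 (34.7 to 42.3 against 75.1 to 76.4 CPM), among them for nanog and above them for sox19b.

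Across all genes tested, 33.9% had an adjusted p-value under 0.05, with 18.6% higher and 15.3% lower in the mutant, so that a call on its own sets no gene apart here. pou5f3 was 1 of 406 genes called with a log2 fold change of -1.01 or lower. Among the 4933 genes whose mean CPM lay within 2-fold of that of pou5f3, and whose counts are therefore about as precise, 32.0% were called and 20.1% were called lower, but 15, pou5f3 included, were called with a fall at least as large. Genes past the 1.5-fold test made up 7.78% of those tested. CPM of the genotypes did not overlap for 48.1% of genes tested, and for 22.5% the mutant was the lower.

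nanog was near the other end of that scale. Its absolute log2 fold change was equalled or undercut by 644 genes, which is 3.70% of those tested, counting nanog itself. Over 16 other fits the log2 fold change of nanog ranged from -0.07 to 0.03, so that this rank is not precise. Of the 581 genes within 2-fold of its mean CPM, 29.8% were called. The median log2 fold change over all genes tested was 0.01.

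**Figure D2:**
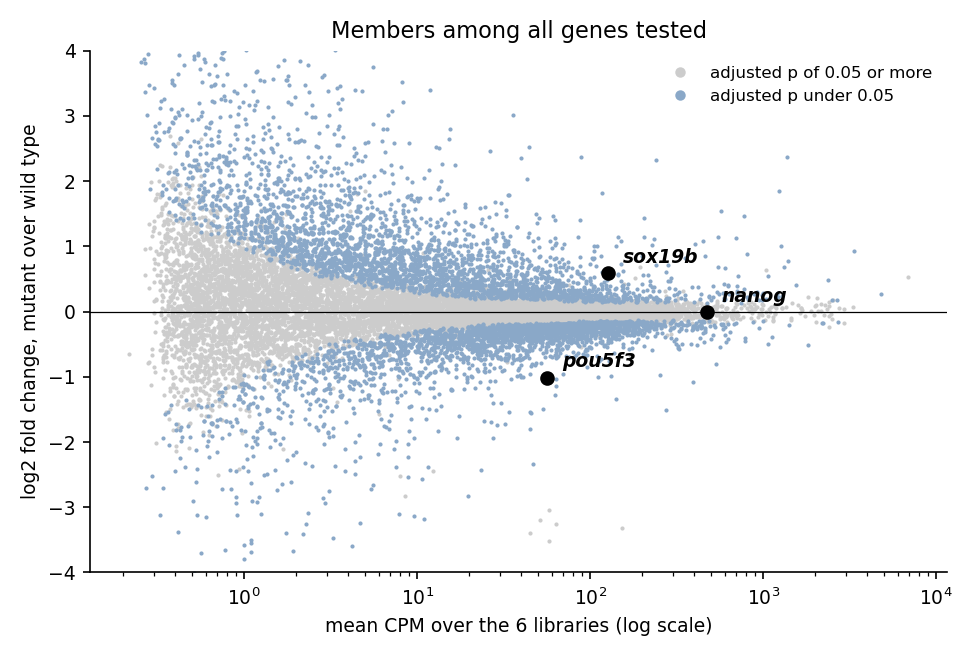
Each point is a gene tested, with the mean CPM over the 6 libraries on a log x axis and the log2 fold change (mutant over wild type) on the y axis; blue points had an edgeR adjusted p under 0.05, and 158 genes beyond 4 on the log2 scale in either direction are not shown. pou5f3 (-1.01) lies below the body of genes at its level, nanog (-0.01) lies at 0 and sox19b (0.59) above.

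Ratios of counts within a library need no scaling between libraries, and were used to compare the members directly. The ratio of nanog to pou5f3 counts was 12.1, 13.0 and 12.8 in mutant libraries 1 to 3 and 6.60, 5.96 and 6.30 in wild-type libraries 1 to 3. The ratio also depends on transcript lengths, so it serves to compare libraries and not the genes. The log2 ratio was 3.66 ± 0.06 in the mutant and 2.65 ± 0.07 in wild type (SD, n = 3 each), a difference of 1.01. The genotypes did not overlap, and the exact permutation p (two-sided) was 0.1, the lowest that 3 against 3 libraries allow.

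The labelled tissue was checked against 13 oocyte markers, which include zona pellucida genes and the germ plasm gene buc. All had counts in every library. Their summed level was 10622 to 11768 CPM in the mutant and 10952 to 11862 CPM in wild type, and the ranges overlapped. The sum is weighted to the most abundant markers, zp2.2, zp2.1 and zp3 (means of 2936, 2745 and 2007 CPM). Taken singly, 5 of the 13 markers did not overlap between the genotypes, against 48.1% of all genes tested. Their median log2 fold change over all 13 was -0.10. Of the 13, none was called higher and 2 were called lower, LHX8 (log2 fold change -0.18, SE 0.06, edgeR adjusted p = 0.029) and DAZL (-0.41, SE 0.06, edgeR adjusted p = 0.000655). The share called was 15.4%, against 33.9% of all genes tested, and 15.3% of all genes were called lower, so that 2 of 13 lower is near the background. Relative to the summed oocyte markers, pou5f3 differed by -0.97 on the log2 scale between mutant and wild type, with a mean log2 ratio of -8.22 ± 0.09 in the mutant and -7.25 ± 0.06 in wild type (SD, n = 3 each; two-sided exact permutation p = 0.1, the smallest possible). For nanog the same difference was 0.04 (exact permutation p = 0.4). In this ratio, pou5f3 was lower in every mutant library than in any wild-type library. Because the marker sums overlapped between the genotypes, the ratio largely repeats the CPM result and is no separate support for it. The comparison was also chosen after seeing the data.

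Markers of other cells of the follicle and its surroundings were read against the background of 33.9% of genes called and 18.6% called higher. Of 22 tested markers of granulosa and theca cells, 13 were called higher and 1 lower (63.6% called, median log2 fold change 0.55), and their summed level was 782 to 794 CPM in the mutant and 641 to 681 CPM in wild type. The 1 called lower, CYP11A1 (ENSDARG00000002347), was the most abundant of the 22 and is part of this sum. It had 224 ± 7.13 CPM in the mutant and 255 ± 6.30 CPM in wild type (SD, n = 3 each). Its log2 fold change was -0.19 (SE 0.05, edgeR adjusted p = 0.0115). Of 13 tested markers of stroma and vessels, 10 were called higher and none lower (76.9% called, median log2 fold change 0.81), with sums of 191 to 195 CPM in the mutant and 101 to 113 CPM in wild type. Of 8 tested blood markers, 3 were called higher and none lower. This share of 37.5% stands against 33.9% of all genes called and 18.6% called higher. The 8 genes are few to set against that background. The 3 called were ptprc, LCP1 and CORO1A, with log2 fold changes of 1.72, 0.84 and 0.58. The other 5, which include the globin gene hbaa1, were not called. The sums of all blood markers overlapped, with 24.6 to 27.1 CPM in the mutant and 17.6 to 25.6 CPM in wild type. hbae1.1 was at 0 counts in every library. The part of these shifts in the results for pou5f3 and nanog was not tested.

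**Figure D3:**
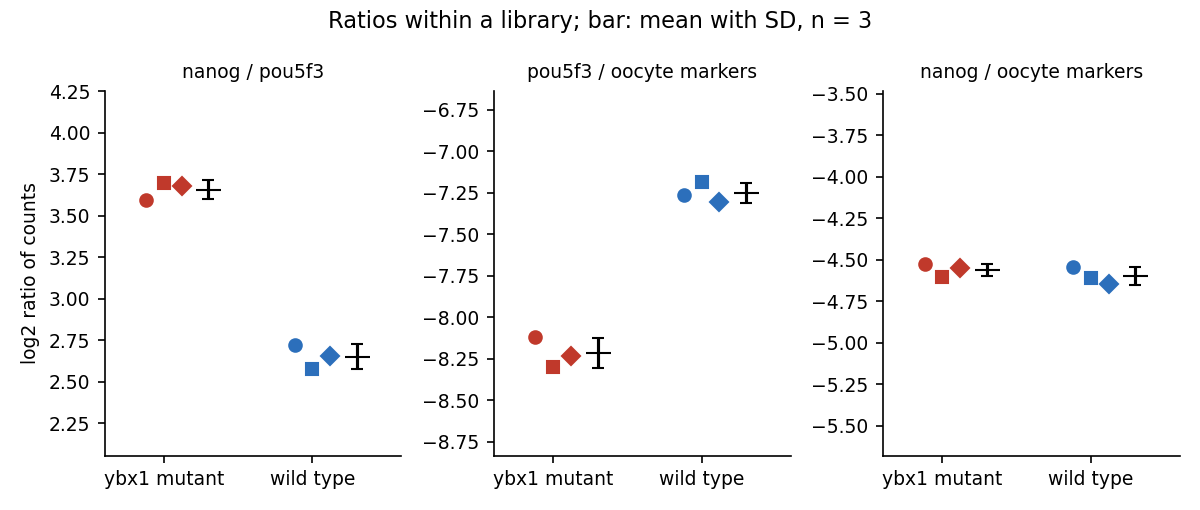
Log2 ratios of counts within each library for nanog over pou5f3, pou5f3 over the summed oocyte markers and nanog over the same markers, with ybx1 mutant libraries in red, wild-type libraries in blue and the mean with SD (n = 3) in black; each y axis spans the same number of log2 units. The ratio of nanog to pou5f3 is higher in the mutant by 1.01, that of pou5f3 to the markers differs by -0.97 and that of nanog to the markers by 0.04.

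The partners of Nanog and Pou5f3 were then examined in a list of SoxB1, Klf, Myc and other pluripotency-related genes. Of 27 genes, 20 were tested, and 4 were called higher, 2 lower and 14 were not called. This share of 30.0% lies near the background of 33.9%. The median log2 fold change was 0.05.

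sox19b encodes the main maternal SoxB1 protein, which acts with Nanog and Pou5f3 in the embryo. It had 149, 168 and 139 CPM in mutant libraries 1 to 3 and 94.9, 99.4 and 108 CPM in wild-type libraries 1 to 3. All mutant libraries exceeded all wild-type libraries. The log2 fold change was 0.59 (SE 0.08, edgeR adjusted p = 0.000262), or 1.51-fold. The other SoxB1 genes were low. SOX3 had 1.30 ± 0.424 CPM in the mutant and 1.22 ± 0.0724 CPM in wild type (SD, n = 3 each), and SOX2 (20 counts over the 6 libraries), sox19a (10 counts) and 1 of the 2 genes listed as SOX1 (ENSDARG00000008131, 6 counts) were too low to be tested.

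MYCN, a Myc family transcription factor gene, fell to 1.11 ± 0.244 CPM in the mutant, against 2.44 ± 0.265 CPM in wild type (SD, n = 3 each; log2 fold change -1.15, SE 0.26, edgeR adjusted p = 0.00687). klf2b, a Krüppel-like factor gene, also fell (log2 fold change -0.66, SE 0.17, edgeR adjusted p = 0.0139). Smaller rises were called for mych (0.31, SE 0.10, edgeR adjusted p = 0.0312), another Myc family gene, for tdgf1 (0.25, SE 0.07, edgeR adjusted p = 0.0197), the gene of the Nodal co-receptor, and for klf2a (0.26, SE 0.09, edgeR adjusted p = 0.0486). The call of klf2a held in 3 of 16 other fits and was lost without any 1 of the 6 libraries. The call of tdgf1 was lost without 3 of the single libraries and that of mych without 4. Of the genes not called, the most abundant were a gene listed as MYC (ENSDARG00000007241), with 104 ± 7.46 CPM in the mutant and 107 ± 3.69 CPM in wild type, and LIN28A (ENSDARG00000016999), the gene of a regulator of let-7 microRNAs, with 60.9 ± 5.99 CPM in the mutant and 60.1 ± 3.55 CPM in wild type (SD, n = 3 each).

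LIN28A and klf2b depended on the authors' normalization, which gives many genes a factor of their own in each library. With these factors as offsets in edgeR, LIN28A was lower in the mutant (log2 fold change -0.35, adjusted p = 0.0256), and klf2b was no longer called. The calls of klf2a and of POU2F2 and CTCF, described below, were also lost with these offsets. nanog and pou5f3 did not share this dependence, because their factors equalled the common factor of each library to within 0.000157 on the log2 scale. The deposited normalized values of pou5f3 were 1049, 863 and 877 in mutant libraries 1 to 3 and 1911, 1878 and 1871 in wild-type libraries 1 to 3. Those of nanog were 12663, 11195 and 11246 in the mutant and 12611, 11198 and 11792 in wild type. Being the same counts divided by the common factor of each library, these values repeat the separation for pou5f3 and the overlap for nanog. They do not test either again.

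Other POU genes were mostly silent or low in these follicles. Of 15, 8 were tested, with 2 called higher and 1 lower. This share of 37.5% lies near the background of 33.9%, and the median log2 fold change was 0.04. POU2F2 was the most abundant of them, with 44.0 ± 2.67 CPM in the mutant and 37.5 ± 2.18 CPM in wild type (SD, n = 3 each; log2 fold change 0.23, SE 0.07, edgeR adjusted p = 0.0366), a call lost in 4 of the 6 fits that left out a library. The call of POU2F2 held in 9 of 16 other fits. pou3f3a rose (log2 fold change 0.72, SE 0.14, edgeR adjusted p = 0.00317). POU3F2 fell to 0.586 ± 0.114 CPM in the mutant, against 1.90 ± 0.177 CPM in wild type (SD, n = 3 each; log2 fold change -1.71, SE 0.30, edgeR adjusted p = 0.00181). POU6F1, not called, had 17.0 ± 1.24 CPM in the mutant and 19.7 ± 2.27 CPM in wild type (SD, n = 3 each). The counting rule for reads shared between related POU genes is not given in the sources used here.

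Genes that Nanog and Pou5f3 help to switch on in the embryo were next. Of 15 such genes, 9 were too low to be tested. mxtx2, a target of Nanog in the extraembryonic yolk syncytial layer, had 6 counts over all libraries, vox 21 and vent 8. The untested genes with the most counts were sox32 (41 counts) and apela (33 counts). sox32 had 0, 0 and 0.105 CPM in mutant libraries 1 to 3 and 0.712, 0.599 and 0.333 CPM in wild-type libraries 1 to 3. apela had 0.136, 0 and 0 CPM in the mutant and 0.562, 0.359 and 0.333 CPM in wild type. cldne (15 counts) had 0.136, 0.452 and 0 CPM in the mutant and 0, 0 and 0.0832 CPM in wild type. mxtx1 and tbx16 had 0 counts in every library, and 3 counts, the floor used for counting error only, would be 0.179 CPM in the smallest library. Of the 6 tested, 3 were called higher and none lower, or 50% called against 33.9% of all genes tested, of which 18.6% were higher, and 6 genes are few to set against that background. The median log2 fold change was 0.34. The 3 genes called are also used in other tissues. DUSP6, a phosphatase gene of the ERK pathway, had 57.0 ± 2.33 CPM in the mutant and 41.6 ± 3.92 CPM in wild type (SD, n = 3 each; log2 fold change 0.45, SE 0.08, edgeR adjusted p = 0.00158). The GATA factor genes GATA5 (0.89, SE 0.16, edgeR adjusted p = 0.00166) and GATA6 (0.51, SE 0.12, edgeR adjusted p = 0.00802) rose beside the granulosa and theca markers, and whether their reads come from those cells was not tested. Of the genes not called, irx7 had 0.492 ± 0.342 CPM in the mutant and 1.12 ± 0.436 CPM in wild type, and tbxta had 0.779 ± 0.244 CPM in the mutant and 0.801 ± 0.121 CPM in wild type (SD, n = 3 each).

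Other maternal regulators of early development formed the next list. Of 27, 25 were tested, with 1 called higher, 6 lower and 18 not called. Genes were placed in this list by name, and whether each is supplied maternally was not tested. The share called, 28.0%, lies near the background of 33.9%. Over all genes tested, 18.6% were called higher and 15.3% lower. The median log2 fold change of the list was 0.01. ctnnb2, the maternal beta-catenin gene needed for the dorsal axis, had 578, 541 and 495 CPM in mutant libraries 1 to 3 and 725, 703 and 726 CPM in wild-type libraries 1 to 3, without overlap (log2 fold change -0.42, SE 0.06, edgeR adjusted p = 0.000508). EOMES (ENSDARG00000006640), a T-box factor gene, fell to 101 ± 3.51 CPM in the mutant, against 125 ± 1.86 CPM in wild type (SD, n = 3 each; log2 fold change -0.31, SE 0.05, edgeR adjusted p = 0.00104). SMAD2, the signal transducer of Nodal, rose to 257 ± 15.9 CPM in the mutant, against 185 ± 5.35 CPM in wild type (SD, n = 3 each; log2 fold change 0.47, SE 0.06, edgeR adjusted p = 0.000151).

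A gene listed as NFYA (ENSDARG00000042004, log2 fold change -0.42, SE 0.12, edgeR adjusted p = 0.0182), which codes for a subunit of the CCAAT-binding factor, and CTCF (-0.20, SE 0.05, edgeR adjusted p = 0.0134), a chromatin insulator gene, fell. The call of CTCF was lost with the deposited factors as offsets and without mutant library 2 or 3, and that of NFYA without wild-type library 1 or 3. The other gene listed as NFYA (ENSDARG00000001621) was more abundant and was not called (log2 fold change -0.23, SE 0.09, edgeR adjusted p = 0.0703). hmga1a and gdf3 were the most abundant genes not called. hmga1a had 401 ± 13.9 CPM in the mutant and 397 ± 13.8 CPM in wild type, and gdf3, the gene of the maternal TGF-beta ligand Vg1, had 379 ± 21.6 CPM in the mutant and 305 ± 60.7 CPM in wild type (SD, n = 3 each).

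**Figure D4:**
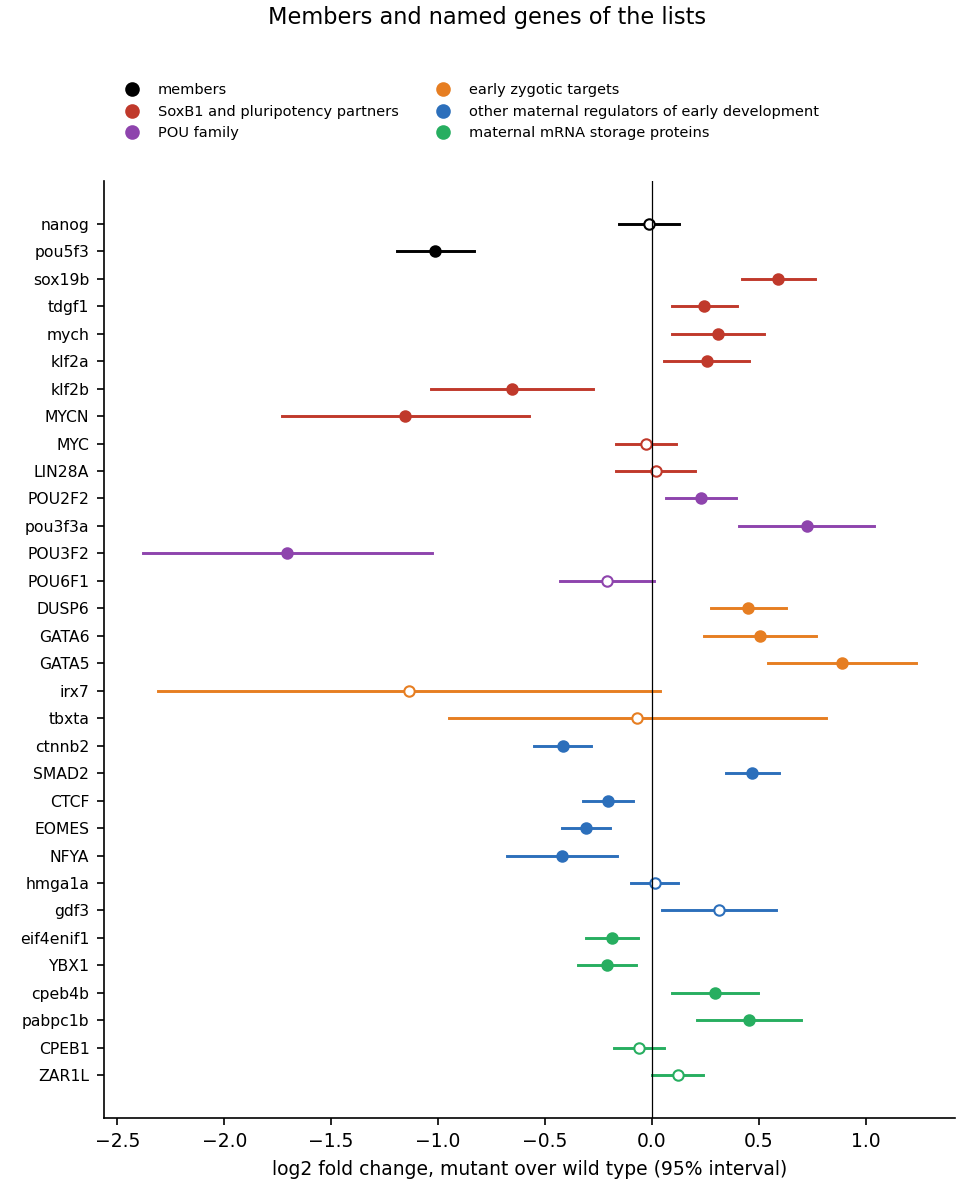
Log2 fold change (mutant over wild type, x axis) with its 95% interval for nanog, pou5f3 and named genes of each list; filled points had an edgeR adjusted p under 0.05 and open points did not. pou5f3 (-1.01) has a narrow interval far from 0, nanog (-0.01) sits at 0 and sox19b (0.59) lies to the right.

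Proteins that store and translate maternal mRNA formed the last list, which holds YBX1 itself. Of 30 genes, 27 were tested, with 2 called higher, 2 lower and 23 not called. The share called was 14.8%, against the background of 33.9%, and the median log2 fold change was 0.01. YBX1 and eif4enif1, the gene of the eIF4E transporter (log2 fold change -0.19, SE 0.05, edgeR adjusted p = 0.0241), were lower. cpeb4b, the gene of a cytoplasmic polyadenylation factor (0.29, SE 0.09, edgeR adjusted p = 0.0294), and pabpc1b, a poly(A)-binding protein gene (0.45, SE 0.11, edgeR adjusted p = 0.00959), were higher. The calls of eif4enif1 and cpeb4b were each lost in 3 of the 6 fits that left out a library. The most abundant genes not called were CPEB1, with 961 ± 51.3 CPM in the mutant and 1002 ± 19.2 CPM in wild type, and ZAR1L, with 733 ± 32.6 CPM in the mutant and 673 ± 28.6 CPM in wild type (SD, n = 3 each). cdkn1a, the cyclin-dependent kinase inhibitor gene named in the series title, had 59, 29 and 49 counts in mutant libraries 1 to 3 and 64, 31 and 45 counts in wild-type libraries 1 to 3. Its CPM overlapped between the genotypes and it was not called (log2 fold change -0.38, SE 0.26, edgeR adjusted p = 0.296).

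Genes with the pattern most like each member over the 6 libraries were found by the root-mean-square distance between log2 CPM centred on each gene's mean, among 11400 other genes with at least 5 CPM. For pou5f3 these included gnb4b (distance 0.0652), the gene of a G protein beta subunit, si:ch1073-83m3.1 (0.0708), BTD (0.0750), the biotinidase gene, and zgc:153499 (0.0760), against a median distance of 0.511. si:ch1073-83m3.1 had 87.9 ± 3.43 CPM in the mutant and 175 ± 6.91 CPM in wild type, and zgc:153499 had 170.5 ± 9.39 CPM in the mutant and 335 ± 23.9 CPM in wild type (SD, n = 3 each). For nanog the nearest were mtfr2 (0.0117), EIF3F (0.0153), PHGDH (0.0169), SLC35A1 (0.0183) and STT3A (0.0184), against a median of 0.147. The distance takes in the genotype difference and the spread between libraries together.

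The results for the members held across the settings tried. Over 16 other fits at the same threshold, pou5f3 was called in each, with log2 fold changes from -1.11 to -0.96. nanog was called in none of them, with log2 fold changes from -0.07 to 0.03. sox19b was called in each of the 16, at 0.51 to 0.65.

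**Figure D5:**
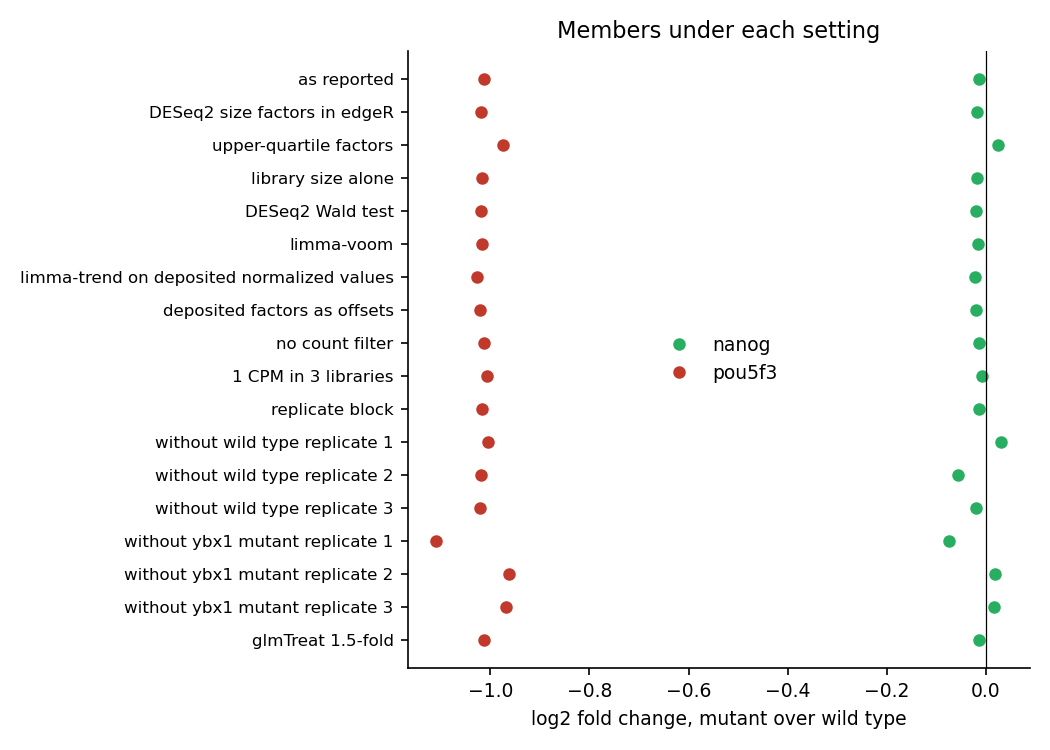
Log2 fold change (mutant over wild type, x axis) of nanog in green and pou5f3 in red, as reported and under each other normalization, test, filter and left-out library. pou5f3 stays between -1.11 and -0.96, and nanog between -0.07 and 0.03.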

How the data were processed

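RNA of PV follicles was sequenced from a directional library kit after TRIzol extraction, per the labels' protocols. Per the submitters' processing notes, the tools were bcl2fastq, FastQC 0.11.5, HISAT2, StringTie and DESeq2 with genome build GRCz11; their settings, the annotation release and the counting rule are not given in the sources used here. One deposited table gives unnormalized counts per gene, all whole numbers, which may be rounded estimates. The other deposited table holds the authors' normalized counts, treated as a linear signal. Library sizes give a floor of 3 counts, or 0.179 CPM in the smallest library, for counting error only.

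Genotypes were compared with edgeR's quasi-likelihood method (4.0.16, R 4.3.3) on counts, with TMM factors, filterByExpr (minimum count 10, minimum total 15), genotype as the only term, Benjamini-Hochberg adjustment over all 17385 genes tested and calls at an adjusted p under 0.05. SEs and 95% intervals came from the F statistic. limma 3.58.1 and DESeq2 1.42.0 were alternatives. The fits were also run on simulated data, whose outcome is not given here and lends no support to the results. If every count is a separate read, every pair of libraries of the same genotype differed by more than sampling noise (chi-square per degree of freedom of at least 5.31). For rounded estimates that noise is not known.

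Symbols came from a table that pairs 28988 of the 32057 identifiers with names, many of them in capitals. List symbols were matched exactly, then without regard to case, then without a final a or b; her3 and ybx3 had no match, nor did 7 markers. Members and lists were chosen with earlier results of these data known. Named genes were the called genes of each list (at most 6, by CPM), the 2 most abundant not called, and the 5 most like each member. Same-numbered libraries were not taken as pairs. Sequences of the genes were not used here, and 3 genes that the rule names are not reported here.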

Additional observations from a re-analysis of the deposited data

How the results depend on the processing

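Direction and call of pou5f3 were kept in every alternative run, with log2 fold changes of -1.11 to -0.96 (adjusted p at most 0.00104), and without each library in turn the range was the same. nanog stayed uncalled in all of them, but its sign turned with upper-quartile factors (0.024), which shifted the median of all genes to 0.04, and without wild-type replicate 1 (0.032), mutant replicate 2 (0.02) or mutant replicate 3 (0.02). Its range without each library was -0.074 to 0.032. The difference in the log2 ratio of nanog to pou5f3 ranged from 0.97 to 1.04, and that of pou5f3 to oocyte markers, a comparison chosen after seeing the data, from -1.02 to -0.93.

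The ybx1 call was lost with upper-quartile factors (-0.17), at an adjusted p under 0.01 and with glmTreat (-0.21 in both), and without wild-type replicate 1 (-0.22) or 3 (-0.16) or mutant replicate 2 (-0.21) or 3 (-0.17); its range without each library was -0.26 to -0.16. cdkn1a stayed uncalled. The count of genes called was 1352 with glmTreat against 1.5-fold, which asks a stricter question, and 3521 at an adjusted p under 0.01, and without each library it was 4489 to 5326. With glmTreat, 0 genes were called among SoxB1 and pluripotency partners, early zygotic targets, other maternal regulators and mRNA storage proteins, and 1 in the POU family. At an adjusted p under 0.01, the partners had 2 calls, the other maternal regulators 3 and the storage proteins 1. Without each library, early zygotic targets had 3 to 5 calls (5 without mutant replicate 3) and storage proteins 1 to 4 (2 without wild-type replicate 1 or mutant replicate 2, 1 without mutant replicate 3). The zygotic target irx7 was called without mutant replicate 3, as lower in the mutant. Of the 23 named genes that were called, pou5f3 included, 12 were called in all 16 other fits at 0.05 and none changed sign. The cause of these losses was not tested.

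In a fit that added a replicate block, pou5f3 had a log2 fold change of -1.02 and nanog of -0.01, and 6110 genes were called. Deviations of same-numbered libraries correlated at 0.10, 0.03 and 0.14, so the pairing was not taken as given. Depth limits the genes too low to be tested, and whether they changed was not tested in the fit reported. With no count filter, early zygotic targets had 4 calls, against 3 as reported.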

Other observations

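The genes next to the members were looked up in the order of protein-coding genes in RefSeq's GRCz12tu assembly, which is not the build of the files, so that only names and order were used; this was chosen after the results were seen. Among the 5 genes on either side of pou5f3, 5 were tested, with 2 called lower and 1 higher, against a background of 33.9% called over all genes. Of the rest, 3 had no single match to an identifier, so that their level was not looked up, and 2 were not tested. Over all genes tested, 18.6% were called higher and 15.3% lower, and 5 genes are few to set against that background. The called neighbours were si:ch211-282j22.3, with 32.4 ± 0.423 CPM in the mutant and 40.2 ± 0.967 CPM in wild type (SD, n = 3 each; log2 fold change -0.32, edgeR adjusted p = 0.00281), clic3 (-0.75, edgeR adjusted p = 0.0484) and pnpla7a (0.36, edgeR adjusted p = 0.00971). The neighbour npdc1a had 40.7 ± 2.93 CPM in the mutant and 37.9 ± 1.20 CPM in wild type (SD, n = 3 each) and was not called. Among the 5 genes on either side of nanog, the 5 tested were not called, with log2 fold changes from -0.21 (pdcd6) to 0.16 (tm9sf1) and edgeR adjusted p of at least 0.0819. Here 2 had no single match to an identifier and 3 were not tested.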
